A study of Homo sapiens with 12 samples.

Results

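The SOXB genes are the 5 human genes SOX1, SOX2, SOX3, SOX14 and SOX21, out of 19974 protein-coding genes on chromosomes 1–22 and X. Chromatin accessibility around them was taken from 9 ATAC-seq peak lists of the osteosarcoma cell line U2OS. A peak belonged to a gene if it touched the gene body or the 100 kb on either side of it on GRCh38. These windows held between 5 and 65 entries per list and 319 entries in all, of which 228 met the criteria for use given below. The windows do not overlap one another. The genes were taken as a family rather than by their peaks, although earlier results of these data were known.

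SOX proteins bind DNA through an HMG box, which fits into the minor groove and bends the helix. SOX1, SOX2 and SOX3 form the B1 group, known as activators that keep neural progenitors undifferentiated, and SOX2 is also a core factor of pluripotent cells. SOX14 and SOX21 form the B2 group, known mainly as repressors in neurons and their progenitors. The genes are short and have no intron in their coding part, and SOX2 lies inside the long non-coding gene SOX2-OT. A SOX2 construct carries the same coding sequence as the gene, so reads from it can be placed on the SOX2 gene.

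SOX1 is at chromosome 13:112067149–112071706 on the plus strand. SOX21 is also on chromosome 13, at 94709622–94712545 on the minus strand. SOX2 is at chromosome 3:181711925–181714436 on the plus strand, and SOX14 is on the same chromosome at 137764315–137766334. SOX3 is at chromosome X:140502985–140505069 on the minus strand. RefSeq promoter sequences (GRCh38.p14, from 250 bases before to 50 after the start) were at hand for SOX1, SOX2, SOX3 and SOX21. They are shown because the SOX2 start was open in most lists and the other 3 starts in few or none. Capitals mark CCAAT or its reverse complement ATTGG in SOX2 and SOX3, and in SOX21 also TTTATA, the reverse complement of TATAAA.
SOX2, chr3:181711675-181711974, plus strand: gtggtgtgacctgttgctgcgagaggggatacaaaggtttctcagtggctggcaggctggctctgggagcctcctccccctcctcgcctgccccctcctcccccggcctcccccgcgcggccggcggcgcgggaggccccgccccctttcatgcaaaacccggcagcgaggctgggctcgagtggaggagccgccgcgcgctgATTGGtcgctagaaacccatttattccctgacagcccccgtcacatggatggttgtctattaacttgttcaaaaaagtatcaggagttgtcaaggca
SOX1, chr13:112066899-112067198, plus strand: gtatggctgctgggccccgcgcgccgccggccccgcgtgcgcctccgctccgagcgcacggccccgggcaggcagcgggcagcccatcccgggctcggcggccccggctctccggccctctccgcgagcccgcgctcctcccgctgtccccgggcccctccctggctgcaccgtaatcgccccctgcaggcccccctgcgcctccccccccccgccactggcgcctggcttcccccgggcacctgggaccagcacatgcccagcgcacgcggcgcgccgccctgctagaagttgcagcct
SOX3, chrX:140505020-140505319, minus strand: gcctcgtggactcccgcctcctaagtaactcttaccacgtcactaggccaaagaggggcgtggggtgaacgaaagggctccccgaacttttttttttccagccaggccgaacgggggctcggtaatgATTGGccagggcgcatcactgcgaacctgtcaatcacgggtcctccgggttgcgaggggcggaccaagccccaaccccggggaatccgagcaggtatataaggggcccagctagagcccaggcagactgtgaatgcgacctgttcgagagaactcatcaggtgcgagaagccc
SOX21, chr13:94712496-94712795, minus strand: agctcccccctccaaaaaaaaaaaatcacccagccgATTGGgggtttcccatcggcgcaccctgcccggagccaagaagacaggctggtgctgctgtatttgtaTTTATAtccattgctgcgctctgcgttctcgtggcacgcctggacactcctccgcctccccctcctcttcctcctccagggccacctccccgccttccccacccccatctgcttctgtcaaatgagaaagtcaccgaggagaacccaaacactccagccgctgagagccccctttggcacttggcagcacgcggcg

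Both strands were searched for 5 motifs that do not overlap in these windows. The SOX core ACAAT, the forkhead motif GTAAACA and the octamer ATGCAAAT had no match in any of the 4 sequences. Only these exact letters were searched, so sites with variant letters were not counted and may be present. Of all 35116 RefSeq promoters of this length, 27.4% held the SOX core, 3.42% the forkhead motif and 1.77% the octamer. CCAAT matched 1 time each in SOX2, SOX3 and SOX21 and not in SOX1, and 34.6% of all promoters hold it. TATAAA matched only in SOX21, and 11.5% of all promoters hold it. The SOX1 sequence was 80.0% G or C with 37 CpG dinucleotides, the richest of the 4. SOX2, SOX3 and SOX21 had 63.3%, 60.3% and 60% G or C and 20, 20 and 15 CpG dinucleotides. The medians of all promoters were 58.7% and 14.

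The study expressed FOXA2, a forkhead pioneer factor, or SOX2 in U2OS cells from doxycycline-inducible (Tet-on) constructs, and asked how the C-terminal domain (CTD) of FOXA2 bears on opening chromatin. The FOXA2 set had 3 groups of 2 biological replicates with 1 list each: cells labelled wild type, cells of genotype Tet-on FOXA2 (full length) and cells of genotype Tet-on FOXA2dCTD (CTD deletion). The SOX2 set had 3 groups of 2 samples with 1 list per group: a wild type whose title also names the SOX2 cell line, Tet-on SOX2 and Tet-on SOX2FOXA2CTD (SOX2 fused to the FOXA2 CTD). Construct cells had received 500 ng/ml doxycycline for 4 days. The genotype and treatment of both wild types are blank while their protocol text also mentions doxycycline, so it is not known whether they received it, nor whether the second wild type carried an uninduced SOX2 construct. The labels do not say whether a line is 1 clone. Lists of the SOX2 set have the layout of the irreproducible discovery rate (IDR) procedure for a pair of inputs, taken here as both samples of the group, and an entry counted as a peak at a global IDR of at most 0.05.

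List length differed widely and limits every comparison. The FOXA2 set lists held from 19862 to 161136 peaks, with the lists labelled wild type the shortest (19862 and 25088), and the SOX2 set lists held 48142 (wild type), 65628 (SOX2) and 75544 (fusion) passing peaks. The second wild type and second full-length list had no mitochondrial peaks and lowest −log10 p values of 5.43 and 5.22, against 2.01 to 3.44 in the other 4 lists of that set. These differences read from the lists are treated as 2 processing batches, and the CTD deletion has lists in only 1 of them. Read depth is unknown. Strength is therefore given as a position within its own list. Top 5% means that the rank by −log10 p, counted from the highest, equals 5% of the number of entries. Tied entries all took the best rank of their tie, so more entries than the stated percent can be at least as high. Ties were common among weak peaks. The median position over the whole list was the top 43.1% in the first full-length list and 42.5% in the second CTD deletion list. In the SOX2 set the ranked entries include those that failed the IDR threshold, 110813 in all in wild type, 147763 with SOX2 and 177650 with the fusion. The median passing peak there was thus in the top 21.7%, 22.2% and 21.3%, in the same order. Of 6 mesenchymal markers with a start in the reference table, between 1 and 5 had a peak within 1 kb of it, depending on the list. The blood and the liver marker in the table had none in any list, and the pluripotency marker had a peak in 1 list, the first CTD deletion.

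The genes that the constructs encode were read first. The best FOXA2 peak was in the top 0.382% and 0.100% of the full-length lists and in the top 1.06% and 0.247% of the CTD deletion lists. The second library labelled wild type also had a strong FOXA2 peak, in its top 1.88%, whereas that of the first was in its top 32.8%. In the SOX2 set the FOXA2 peak was in the top 21.1% in wild type, 24.7% with SOX2 and 35.5% with the fusion. The best SOX2 peak in that set was in the top 6.96% with SOX2 and 8.78% with the fusion, against 14.8% in wild type, where it lay over the start. These positions are not compared with those of FOXA2 in the FOXA2 set, since the sets were called differently.

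Among the members with a start in the reference table, SOX2 had a peak near it in the most lists. SOX14 had no start there and was not assessed. A peak overlapped the SOX2 transcript in 8 of 9 lists, and the same 8 lists had a peak within 1 kb of the start. Only the second library labelled wild type of the FOXA2 set had none. For comparison, the share of 15813 protein-coding genes with a peak within 1 kb of a start was 38.5% and 36.7% in the libraries labelled wild type of the FOXA2 set, 66.2% and 58.1% with full-length FOXA2 and 51.7% and 66.4% with the CTD deletion. In the SOX2 set it was 57.6% in wild type, 60.1% with SOX2 and 55.1% with the fusion. SOX1 had such a peak in 0 lists, SOX3 only in the second CTD deletion list (−log10 p 3.08) and SOX21 only in the wild type of the SOX2 set. The peaks at SOX2 formed 2 separate regions, one over the start and one inside the transcript. The start region was called in 6 lists. The first library labelled wild type of the FOXA2 set and the SOX2 list had a peak in use only inside the transcript.

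The start region of SOX2 (chromosome 3:181710856–181712171) covered the promoter sequence shown above. It had no peak in either library labelled wild type of the FOXA2 set and a peak in all 4 construct lists of that set. The authors' fold enrichment over the background of each library was 4.00 and 5.45 in the full-length libraries and 2.70 and 5.13 in the CTD deletion libraries. These are modest peaks, in the top 22.9%, 71.1%, 85.9% and 11.1% of their lists. The region was thus gained with both FOXA2 constructs against that wild type. It was open without FOXA2 in the other wild type, where the inputs of the entry had −log10 p values of 16.2 and 23.5. With the fusion the inputs were lower, 8.58 and 11.1, and the narrower peak (276 bp against 1114 bp) still passed. With SOX2 the inputs were 18.7 and 6.30, which differ so much that the entry failed at a global IDR of 0.252. The region therefore counted as lost with SOX2, although 1 of its inputs there lay between the wild-type inputs.

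The transcript region of SOX2 (chromosome 3:181712248–181713481) lay wholly within SOX2, a gene of 1 exon. Among the libraries of the FOXA2 set the first wild type had a peak of 365 bp there with −log10 p 11.3, the first full-length library one of 253 bp with 4.34, and the first CTD deletion library one of 1016 bp with 13.8. The second library of each group had none, so replicates of every group disagreed. All 3 lists with the peak belong to the batch with mitochondrial peaks, as does the second CTD deletion list, which lacked it. In the SOX2 set all 3 lists had the peak. Its inputs reached 26.1 and 10.8 in wild type, 26.3 and 22.7 with SOX2, and 14.96 and 20.4 with the fusion. The wild-type inputs span those of the fusion and overlap those of SOX2, and both SOX2 inputs were above both fusion inputs. These values also depend on the depth of each input, which is unknown. The peak was wider with SOX2 (1110 bp) and the fusion (1100 bp) than in wild type (740 bp), and began nearer the start. A SOX2 peak inside the exon was thus present in lists of cells with no SOX2 construct, 1 of them labelled wild type. How much of it in the SOX2 set came from the construct was not tested and cannot be told from peak lists.

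**Figure D1:**
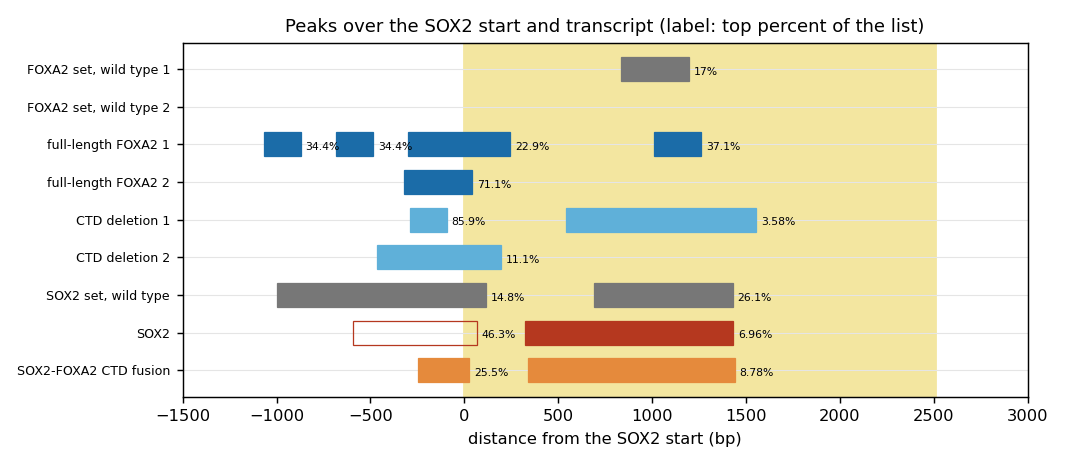
Peaks around the SOX2 start in the 9 lists, by distance from the start in bp. The yellow band is the transcript, filled bars are peaks in use, the open bar is the SOX2 entry that failed the IDR threshold, and labels give the top percent of the list. The start peak is absent from both FOXA2-set wild types, and the peak inside the exon appears in 6 lists, including 2 wild types.

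The number of peaks per window was near or below that of other genes. With the peaks in use, the median over the 5 members was 1 and 1 in the libraries labelled wild type of the FOXA2 set, 12 and 3 with full-length FOXA2 and 5 and 9 with the CTD deletion, against medians of 2, 2, 15, 6, 8 and 14 over all protein-coding genes in the same order. In the SOX2 set the members' median was 2 in wild type, 6 with SOX2 and 7 with the fusion, against 6, 7 and 7 over all genes. The wild type of the SOX2 set had the lowest median relative to all genes. SOX2 had the most peaks of the 5 in the first full-length list, with 20. SOX3 had the fewest in 8 of the 9 lists, and none in any of the 3 wild-type lists. SOX21, the other gene with few peaks, had 1 to 5 peaks in each list. The median width of peaks in the windows was below that of the whole list in 5 lists and above it in 4, for example 751 bp against 715 bp with SOX2.

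**Figure D2:**
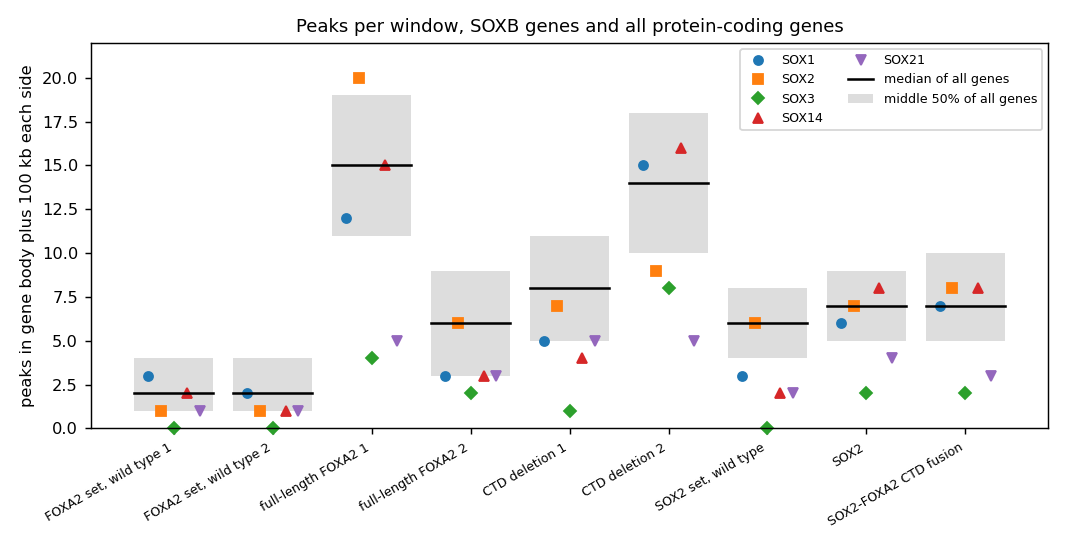
Peaks in use per window (gene body plus 100 kb on each side) for each SOXB gene (symbols) in the 9 lists, with the median (line) and the middle 50% (grey) over 19974 protein-coding genes. SOX3 lies below the grey range in every list, and SOX2 rises above it only in the first full-length list, with 20 peaks.

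Merging the peaks in use of all 9 lists gave 110 regions: 33 around SOX14, 27 around SOX1, 26 around SOX2, 13 around SOX21 and 11 around SOX3. Distances in the text run from the nearer end of the gene to the nearer edge of the region. Most were called in a single list (70 of 110), and 58 of these came from the long lists of the first full-length and the second CTD deletion library, 29 from each. Within 10 kb of their gene lay 14 regions, and 3 overlapped it. Each window spans 202 to 205 kb, so most of it lies farther from the gene by construction. The share over all genes was not computed. Of the 26 regions around SOX2, 18 lay in SOX2-OT, and of the 27 around SOX1, 17 lay in the non-coding gene SOX1-OT. The share of each window that these long non-coding genes cover was not computed, so these counts have no background. At the edge of the windows, the nearest peak inside was 99.7 kb upstream of SOX1 in the second CTD deletion list (−log10 p 3.68). The nearest outside was 101 kb upstream of SOX2 in the SOX2 list (−log10 p 11.3).

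Only 2 regions were called in all 9 lists. One lay 24.1 kb upstream of SOX1 within SOX1-OT (chromosome 13:112042180–112043014), with positions from the top 12.5% in the wild type of the SOX2 set to the top 73.0% in the second wild type of the FOXA2 set. The other lay 52.0 kb downstream of SOX21 (chromosome 13:94656488–94657592). Its position ranged from the top 5.28% in the first CTD deletion list to the top 35.3% in the first library labelled wild type. The SOX21 region had the narrower range of the pair, and both were called in every wild-type list.

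**Figure D3:**
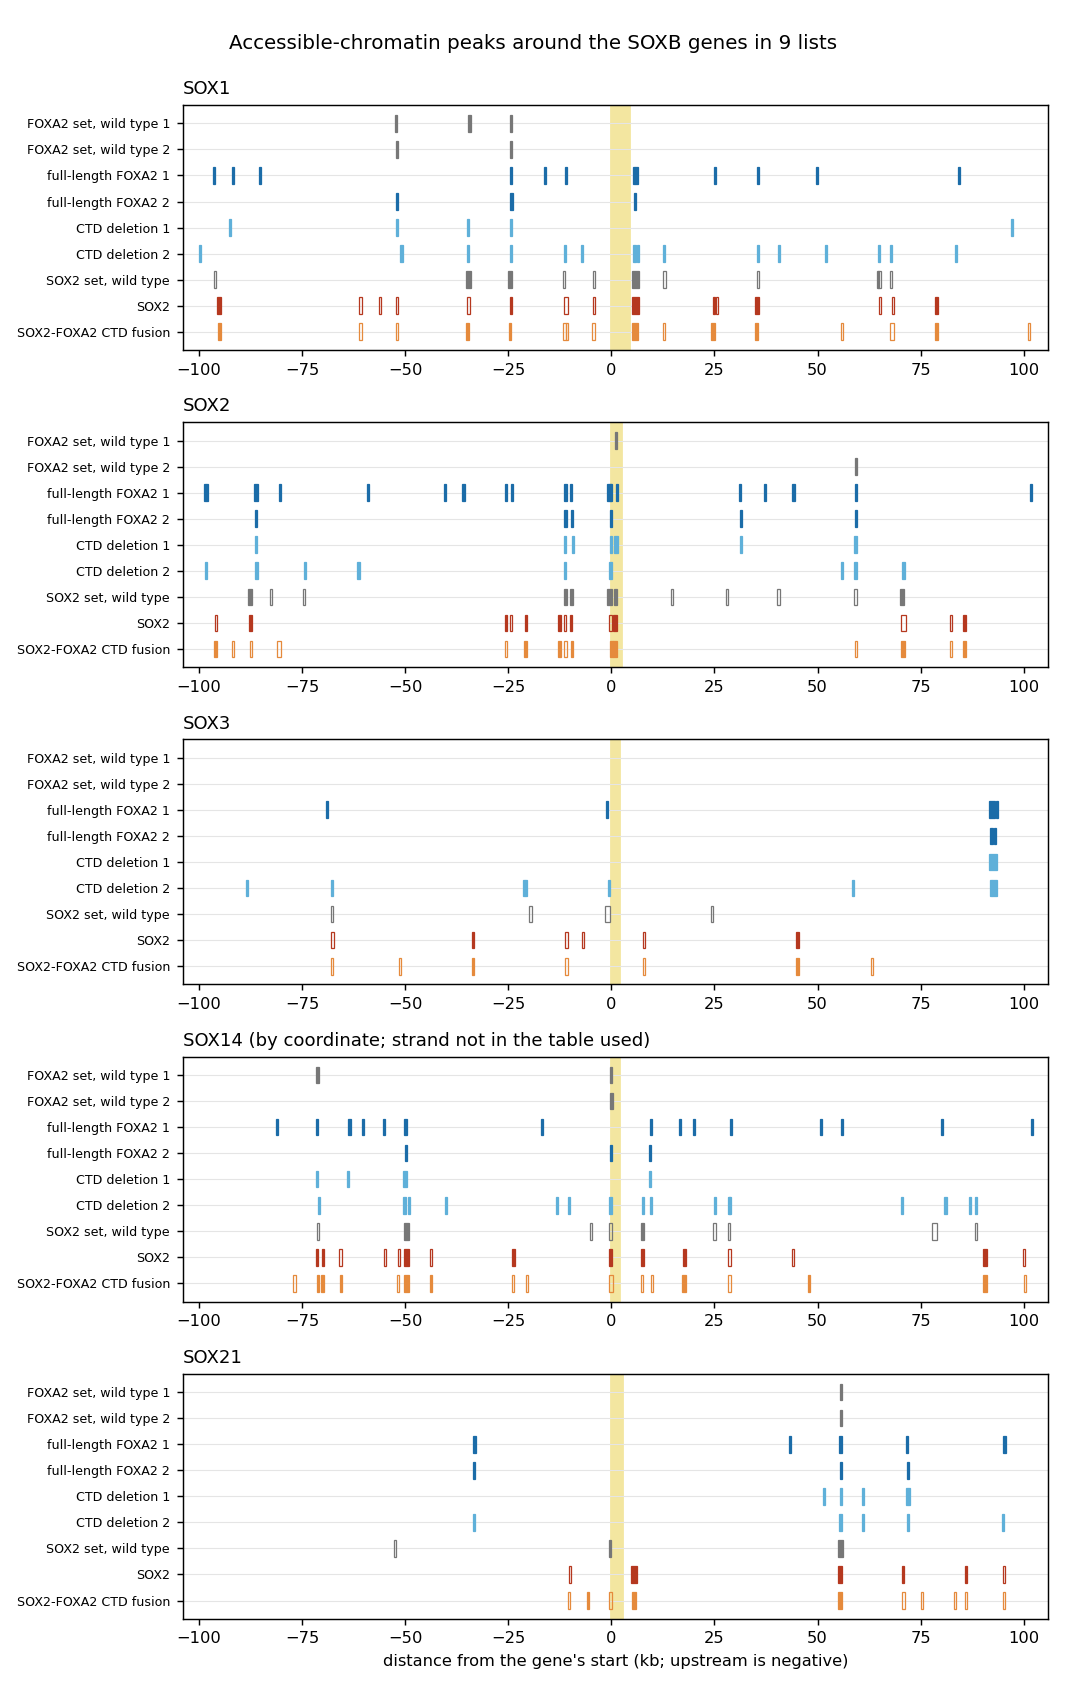
Entries of the 9 lists in the windows of the 5 SOXB genes, by distance from the gene's start in kb, with upstream negative (SOX14 is drawn by coordinate). Filled bars are peaks in use, open bars are entries that failed the IDR threshold, and the yellow band is the gene. The SOX21 region 52.0 kb past the end of the gene is filled in all 9 lists (further right here, where distance starts at the gene's start), and SOX3 is empty in the FOXA2-set wild types.

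A gain with a FOXA2 construct means that each of its 2 libraries had a peak in the region and that the wild-type libraries of the set had none. Of 94 regions of the FOXA2 set in the SOXB windows, 11 were gained with full-length FOXA2 (11.7%) and 9 with the CTD deletion (9.57%). Over all 276021 regions of the set the shares were 9.06% and 8.72%, so the windows gained regions at about the background rate. None was lost with either construct, where the background was 0.155% and 0.0576% of regions, and 3.03% and 1.31% of genes had at least 1 lost region. The 11 full-length gains fell unevenly: 5 were around SOX2, 2 around SOX14, 2 around SOX21, 1 around SOX1 and 1 around SOX3. Every member had at least 1, as did 86.7% of all protein-coding genes, and with the CTD deletion 84.4% of genes did.

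The counts depend on list length and on single libraries. When every list was shortened to its best 19862 peaks, gains and losses were 2 and 2 with full-length FOXA2 and 2 and 1 with the CTD deletion. Without the second full-length library 48 regions were gained with full-length FOXA2, and without the first or the second CTD deletion library 46 or 15 were gained with the CTD deletion. Within the batch with mitochondrial peaks 49 were gained with full-length FOXA2 and 10 with the CTD deletion, and within the other batch 12 were gained with full-length FOXA2. An exact permutation test of 2 libraries against 2 cannot give a two-sided p below 0.333, so none was used.

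The region that ranked highest among the full-length gains was 85.8 kb upstream of SOX2 in SOX2-OT (chromosome 3:181625313–181626165). The fold enrichment there was 6.60 and 11.9 in the full-length libraries and 6.03 and 3.76 in the CTD deletion libraries. It was in the top 2.82% and 7.68% of the full-length lists and in the top 10.1% and 38.4% of the CTD deletion lists. The SOX2 set lists were empty there, failing entries included. Nearer to SOX2, a region 10.9 kb upstream (chromosome 3:181700316–181701054), also in SOX2-OT, had a peak in all 4 FOXA2 construct lists. Its fold enrichment was 5.28 and 8.86 in the full-length libraries, above the 3.13 and 3.41 of the CTD deletion libraries. The same region was open in the wild type of the SOX2 set, with inputs at −log10 p 10.7 and 10.1. It counted as lost with SOX2 (inputs 6.18 and 5.26, IDR 0.0871) and with the fusion (5.21 and 3.74, IDR 0.187).

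Around SOX3 the 1 gained region lay 89.5 kb downstream (chromosome X:140411437–140413455), in no annotated gene. It was broad, spanning 2019 bp, and had fold enrichments of 4.23, 6.82, 5.36 and 5.45 in the first and second full-length and CTD deletion libraries. It was in the top 16.8%, 43.6%, 9.08% and 9.54% of these lists. Around SOX14, a region 49.1 kb on the lower-coordinate side (chromosome 3:137713763–137715258), in the non-coding gene LOC105374126, was called in 7 lists. Its fold enrichment was 6.07 and 7.16 with full-length FOXA2 and 6.08 and 5.05 with the CTD deletion. The region was in the top 4.30% and 38.7%, then 4.47% and 12.5% of those lists. It lacked a peak only in the libraries labelled wild type of the FOXA2 set, since all 3 lists of the SOX2 set had it, wild type included. A second SOX14 region lay 6.99 kb on the higher-coordinate side in the non-coding gene LINC01210 (chromosome 3:137773326–137773961). It had fold enrichments of 3.72 and 8.18 with full-length FOXA2 and 3.10 and 2.83 with the CTD deletion, and no entry in the SOX2 set. It was in the top 36.1% and 27.1%, then 75.6% and 85.9% of those lists. Around SOX21 the region gained with both constructs was 68.5 kb downstream (chromosome 13:94640271–94641141). Its fold enrichments were 3.65, 5.45, 3.90 and 5.26 in the first and second full-length and CTD deletion libraries. It was in the top 37.4%, 71.1%, 42.3% and 12.9% of these lists, so the highest fold enrichment had the lowest position. Around SOX1, a region 0.427 kb past the end of the gene (chromosome 13:112072134–112073935) was gained with full-length FOXA2 and was in the top 3.21% and 55.5% of those lists. The second CTD deletion list also had it, at the top 7.33%, and so did all 3 lists of the SOX2 set. The other 2 full-length gains, 28.4 kb downstream of SOX2 and 33.2 kb upstream of SOX21, were low in those lists (from the top 62.1% to the top 98.1%) and had a peak in 1 CTD deletion library each.

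Full-length FOXA2 and the CTD deletion shared most of these gains. Both constructs gained 7 regions, 7.45% of the regions in the windows against 4.29% of all regions. They were 3 around SOX2, 2 around SOX14 and 1 each around SOX3 and SOX21. Only 1 region was gained with full-length FOXA2 and called in no CTD deletion list (background 1.65%), 9.56 kb upstream of SOX2 (chromosome 3:181701916–181702368). Even there the first CTD deletion library had a peak close by (chromosome 3:181702426–181702625). All 3 lists of the SOX2 set had the merged region that holds both. In the opposite direction there were 2 CTD-deletion-only regions (background 1.94%), 34.8 kb upstream of SOX1 and 57.8 kb downstream of SOX21. The former is part of the merged region 34.1 kb upstream of SOX1. Close to it, the first wild-type library of the set had a peak (chromosome 13:112032481–112032680). Without the second full-length library the full-length-only count was 34, without the first or second CTD deletion library it was 2 or 3, and within the batch with mitochondrial peaks it was 34. The CTD-deletion-only count was 34 or 6 without the first or the second CTD deletion library.

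For SOX2 and the fusion the comparison is with a single wild-type list, which allows no spread between replicates. Of 37 regions in the windows, SOX2 gained 19 and the fusion 19, 51.4% each. Over all 102872 regions the shares were 33.9% and 43.7%, so that the windows were above the background with SOX2 and by less with the fusion. This difference rests on few regions and was not tested. The wild-type list was sparse in these windows, with a median of 2 peaks per member against 6 over all genes. Lost regions numbered 5 with SOX2 (13.5%, background 17.0%) and 4 with the fusion (10.8%, background 17.1%). The losses touched 3 of 5 members with each construct, and 77.7% and 80.8% of all protein-coding genes. Every member had a gained region with each construct. Around SOX14 there were 6 with SOX2 and 7 with the fusion, around SOX1 and SOX2 4 each with either construct, around SOX3 2 each, and around SOX21 3 and 2. At least 1 gained region was also found in the windows of 89.9% (SOX2) and 90.1% (fusion) of all protein-coding genes. If a region counted as absent from a list only where that list had no entry at any IDR, 16 and 17 regions were still gained, but only 1 and 0 were lost. With all entries kept whatever their IDR, 34 and 41 were gained and 18 and 16 lost.

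**Figure D4:**
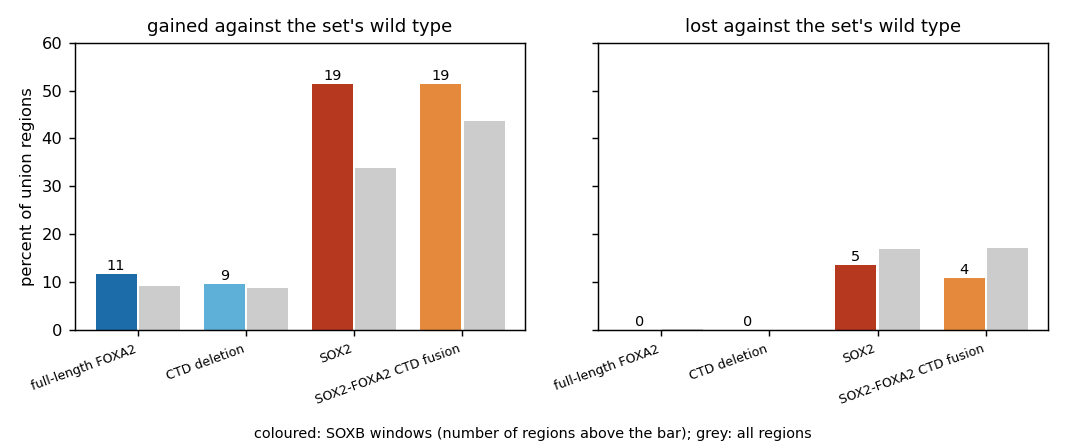
Share of union regions gained (left) and lost (right) against the wild type of the set, in percent, for the SOXB windows (coloured, with the number of regions above each bar) and for all regions (grey). The SOX2 bar for gained regions stands at 51.4% against 33.9% for all regions, and the FOXA2 bars stand near their grey neighbours.

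The 2 strongest gains with SOX2 constructs were far from their genes. One lay 94.6 kb upstream of SOX1 (chromosome 13:111971568–111972511), in SOX1-OT. Its inputs reached −log10 p 36.2 and 38.9 with SOX2 and 33.7 and 32.6 with the fusion, which placed it in the top 1.74% and 0.359% of these lists. The other lay 88.2 kb on the higher-coordinate side of SOX14 (chromosome 3:137854541–137855513), in no annotated gene. Its inputs reached 43.6 and 33.5 with SOX2 and 32.9 and 36.9 with the fusion, the top 2.35% and 0.332%. Neither region had an entry in the wild type of the SOX2 set at any IDR or a peak in any FOXA2 set list. All 4 inputs were high in each region, so these gains did not rest on 1 input.

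Around SOX2 itself, 3 regions were gained with both SOX2 constructs. They lay 20.4 kb upstream (chromosome 3:181690814–181691499), 12.2 kb upstream (chromosome 3:181698931–181699681) and 82.6 kb downstream (chromosome 3:181797080–181798042). The inputs of the first were 9.002 and 10.1 with SOX2 and 13.9 and 14.2 with the fusion. Those of the second were 12.6 and 12.5 with SOX2 and 8.99 and 10.7 with the fusion. The peaks of all 3 regions were in the top 10.5% to the top 31.8% of all entries. The median passing peak was in the top 22.2% with SOX2 and 21.3% with the fusion. All 3 lacked a peak in every FOXA2 set list and an entry in wild type. They lie outside the SOX2 transcript, the upstream pair within SOX2-OT.

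SOX21 had the gained region nearest to a gene among those shared by both SOX2 constructs, 1.78 kb downstream (chromosome 13:94706434–94707837) in the non-coding gene LINC00391. Its inputs were 17.4 and 27.1 with SOX2 and 10.9 and 12.8 with the fusion. At the start of SOX21 the change was the opposite. A region 0.071 kb upstream of it (chromosome 13:94712617–94713247), over SOX21-AS1, passed in wild type with inputs of 9.64 and 7.69. It had no SOX2 entry and a fusion entry that failed (inputs 3.88 and 3.62, IDR 0.511). With a wild-type global IDR of 0.0245 this call does not hold at a limit of 0.01. Around SOX3 the gained regions were 42.6 kb downstream and 33.3 kb upstream. The first had inputs of 14.7 and 11.3 with SOX2 and 13.4 and 13.6 with the fusion, and the second had 7.34 and 6.14 with SOX2 and 9.27 and 6.57 with the fusion. The upstream region was the weaker of the pair, at the top 46.9% with SOX2 and 35.5% with the fusion, against 23.3% and 11.4% downstream.

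The remaining shared gains were 3 around SOX1 and 3 around SOX14. Downstream of SOX1, the region at 30.3 kb (chromosome 13:112102039–112102858) had inputs of 17.6 and 18.7 with SOX2 and 10.1 and 11.7 with the fusion, and a wild-type entry (7.27 and 3.35) that failed at an IDR of 0.338. The region at 19.7 kb had inputs of 9.10 and 8.51 with SOX2 and 11.3 and 16.4 with the fusion, and the one at 73.8 kb had 9.36 and 9.91, then 11.3 and 12.7. SOX2 was thus higher at the first of these regions and the fusion at the others. Around SOX14, the region 15.1 kb on the higher side had 9.99 and 11.2 with SOX2 and 17.1 and 15.6 with the fusion. The region 69.8 kb on the lower side, in LOC105374126, had 8.15 and 6.38 with SOX2 and 8.30 and 9.59 with the fusion. Close to it, also in LOC105374126, a region 70.953 kb on the lower side (chromosome 3:137692693–137693361) had 9.97 and 10.4 with SOX2 and 10.4 and 8.61 with the fusion. Its wild-type entry (6.15 and 12.1) failed at an IDR of 0.0758, and the first library labelled wild type of the FOXA2 set was open at it, so it counts among the shared gains of the SOX2 set but not among regions without any wild-type peak.

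Of the lost regions, 4 of 5 with SOX2 and 4 of 4 with the fusion still had an entry that missed the IDR threshold. With SOX2 they were the SOX2 start, the region 10.9 kb upstream of SOX2, one 67.6 kb downstream of SOX2, one 34.1 kb upstream of SOX1 and the SOX21 start. The region 67.6 kb downstream of SOX2 had wild-type inputs of 17.5 and 15.5, SOX2 inputs of 7.34 and 2.77 and fusion inputs of 10.8 and 9.92, which passed. The region 34.1 kb upstream of SOX1 had wild-type inputs of 16.8 and 12.1 and SOX2 inputs of 3.24 and 6.82. Both of these were higher in each wild-type input than in each SOX2 input. With the fusion the losses were the region 10.9 kb upstream of SOX2, one 87.2 kb upstream of SOX2, one 5.13 kb on the higher side of SOX14 and the SOX21 start.

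A merged region over the lower-coordinate end of SOX14 (chromosome 3:137763658–137764498) was called in 5 lists. Both libraries labelled wild type of the FOXA2 set had a peak in it, at the top 89.4% and 91.4%, as did 1 library of each FOXA2 construct. The peaks of the second wild-type and the second full-length library ended just before the gene, 0.005 and 0.053 kb from it. In the SOX2 set the region passed only with SOX2, with inputs of 9.97 and 14.1. The wild-type entry (2.19 and 6.54) and the fusion entry (10.1 and 5.40, IDR 0.100) failed. No promoter sequence was matched for SOX14.

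SOX2 and the fusion were then set side by side, to see what adding the FOXA2 CTD went with. The shared gains numbered 14, 37.8% of the regions in the windows against 24.2% of all. Of these, 12 (32.4%, background 16.1%) were empty in wild type, failing entries included. Each construct had 5 regions of its own, against a background of 9.72% for SOX2-only and 19.5% for fusion-only regions. The SOX2-only regions were 2 around SOX14, 2 around SOX21 and 1 around SOX2, and the fusion-only regions were 3 around SOX14, 1 around SOX2 and 1 around SOX21. When a failing entry was enough to keep a region from counting as absent, but not enough to call it present, 0 SOX2-only and 2 fusion-only regions were left. With all entries kept whatever their IDR there were 6 and 13. With 48142 peaks from each list there were 3 and 2.

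The regions of FOXA2 and SOX2 constructs were then set against each other in the merged regions of all 9 lists. A peak in all 4 FOXA2 construct lists and in neither wild-type list of that set was found at 7 regions. Of these, 2 had a peak in a SOX2 construct list (28.6%, against 36.1% over all regions), the SOX2 start and the SOX14 region 49.1 kb on the lower side. A further 4 were in no other list, 1 each around SOX2, SOX3, SOX14 and SOX21, and had no failing entry in the SOX2 set. In the other direction, 13 regions were called in both SOX2 construct lists and in no wild-type list of either set. FOXA2 construct lists had no peak at 11 of them (84.6%, against 65.2% over all regions). The difference from the background rests on few regions and was not tested. The exceptions were the regions 19.7 kb and 30.3 kb downstream of SOX1, with FOXA2 construct peaks of −log10 p 5.46 in the first full-length library at the former and, at the latter, 2.02 in that library and 2.998 in the second CTD deletion library. The FOXA2 and SOX2 sets were called differently, so levels are not compared across them.

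**Figure D5:**
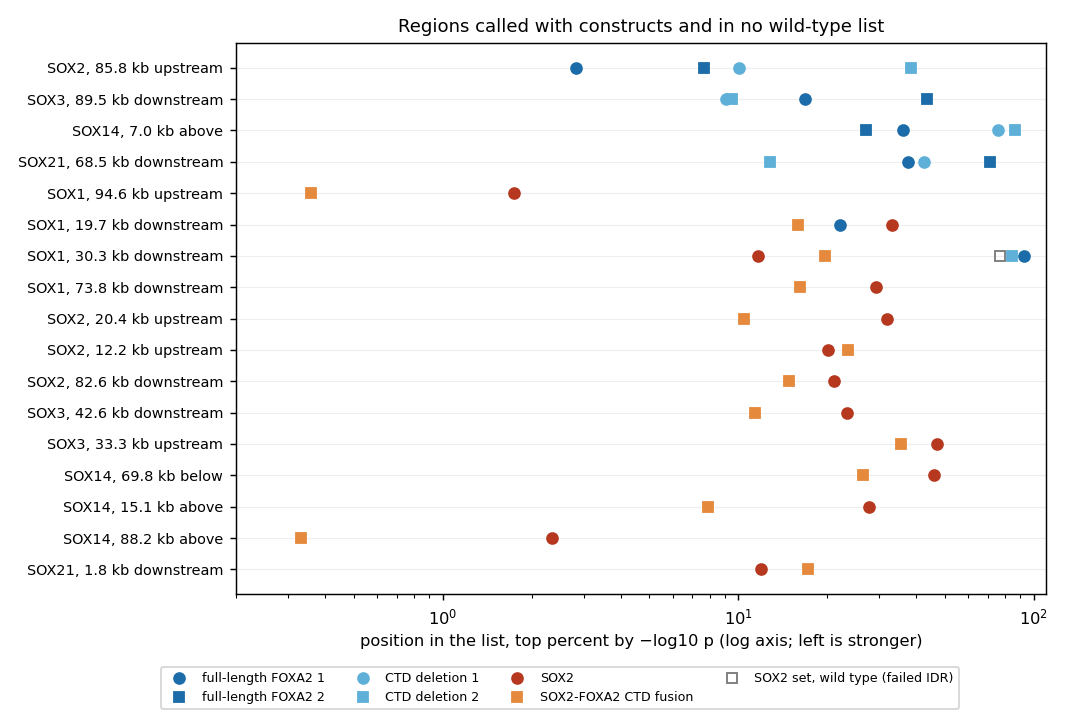
The 4 regions called only in the 4 FOXA2 construct lists (top) and the 13 regions called in both SOX2 construct lists and in no wild-type list, placed by top percent of each list (log axis, stronger to the left). The regions 94.6 kb upstream of SOX1 and 88.2 kb above SOX14 lie leftmost, at or below 2.35% in both SOX2 construct lists.

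Other genes tied to SOX2 were taken from 3 lists: 14 further SOX genes, 7 partner factors of SOX2 and 7 of its target genes. With full-length FOXA2, 12 of 14 SOX genes, 5 of 7 partners and 6 of 7 targets had a gained region, with medians of 2, 1 and 3 regions per gene against 2 in the SOXB genes and 2 over all genes. With the CTD deletion 11 of 14, 3 of 7 and 4 of 7 had one, with medians of 1, 0 and 1 against 2 and 2. With SOX2, 13 of 14, 6 of 7 and 7 of 7 had one. Medians were then 3, 1 and 3, against 4 in the SOXB genes and 2 over all genes. With the fusion the same numbers of genes had one, and medians were 2, 4 and 4, against 4 and 3. Among all protein-coding genes, 86.7% had a gained region with full-length FOXA2 and 84.4% with the CTD deletion. For SOX2 and the fusion these shares were 89.9% and 90.1%. The lists are short, and their difference from these shares was not tested. SOX5, a long SOXD gene, had the most gained regions, 23 with SOX2 and 28 with the fusion. Among the partners POU3F3, a neural POU factor, had 7 and 6. Among the targets GLI2, a mediator of Hedgehog signalling, had 7 and 6.

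Genes whose number of entries per 10000 entries of a list followed that of SOX2 most closely over the 9 lists included ZIM3, SEMA3G, DUXA and USP29. Pearson's r of log2 (value + 1) was 0.962, 0.953, 0.951 and 0.948, as a description over 9 lists that differ in length and threshold. Entries that failed the IDR threshold were counted here. ZIM3, DUXA and USP29 are all on chromosome 19 and had nearly the same counts, for example 15, 15 and 14 entries in the first full-length list. Whether their windows share peaks was not checked, so they may not be separate cases. The other SOXB genes did not follow SOX2, with r of 0.496 for SOX3, 0.116 for SOX14, -0.166 for SOX21 and -0.472 for SOX1.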

How the data were processed

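Chromatin accessibility was measured by ATAC-seq in 12 U2OS samples, and 9 deposited peak lists were used. The submitters' processing notes name Trim Galore, Bowtie2 2.4.4, SAMtools 0.1.18, MACS2 and build hg38, without parameters; any control and duplicate handling are not given in the sources used here. The deposited −log10 p values, fold enrichment (a ratio over the library's own background) and score are the authors'; the score was not used. In lists of the IDR layout, the deposited −log10 p is the lower of both inputs.

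Peaks on chromosomes 1–22 and X were kept, and IDR entries at a global IDR of at most 0.05. Lists of a set were merged into union regions, called by an overlap of at least 1 bp (Python 3.11.15, pandas 2.3.3, numpy 2.4.6); the caller was tested on simulated lists. Gene bodies, starts and promoter sequences came from RefSeq GRCh38.p14. SOX14 had no start in that table, and both of its ends were searched. Named regions were those at the transcript or start, the region in most lists, and the gained and lost region ranking highest per comparison, with the remaining regions named from shared calls after their values were seen. Genes most like SOX2 were ranked by Pearson's r over the 9 lists, and 1 of the highest is not reported here. Members and lists were chosen with earlier results of these data known. Alternatives were window size, list length, overlap, threshold, IDR limit, batch and leaving out each library. Read depth is unknown, so no interval is given.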

Additional observations from a re-analysis of the deposited data

How the results depend on the processing

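Counts of regions moved by more than 1.5 times under several settings. In the FOXA2 set, a window of 50 kb gave 5 regions gained with the CTD deletion and 1 CTD-deletion-only region. Shortening lists to one length gave 2 gains and 2 losses with full-length FOXA2, 2 gains and 1 loss with the CTD deletion, and 1 CTD-deletion-only region. Requiring 50% cover gave 6 gained with full-length FOXA2 and 4 CTD-deletion-only. A common −log10 p of 5.43 gave 5 gained with full-length FOXA2, and for the CTD deletion 2 gained, 1 lost and 0 CTD-deletion-only. Within the batch with mitochondrial peaks 49 were gained and 3 lost with full-length FOXA2, 34 were full-length-only and 1 was lost with the CTD deletion. Leaving out each library gave 11 to 48 gained and 0 to 2 lost with full-length FOXA2, 9 to 46 gained and 0 to 1 lost with the CTD deletion, 1 to 34 full-length-only and 2 to 34 CTD-deletion-only.

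In the SOX2 set, a window of 50 kb gave 11 gained with SOX2, 11 with the fusion, 3 SOX2-only and 3 fusion-only. Equal numbers of peaks, and a global IDR of at most 0.01, each gave 3 SOX2-only and 2 fusion-only. All entries gave 34 gained and 18 lost with SOX2, 41 gained and 16 lost with the fusion, and 13 fusion-only. Counting a region as absent only where a list had no entry at any IDR gave 1 lost with SOX2, 0 lost with the fusion, 0 SOX2-only and 2 fusion-only. The number of lists with a peak on the SOX2 transcript stayed between 6 and 8 under the 3 settings run; coverage of the coding part was not run, since its limits were not used here. Smaller windows and shorter lists hold fewer regions by construction, and for the rest the cause was not tested. No paired analysis was possible because no model was fitted that could hold a replicate block; a gain within each same-numbered pair of libraries is the rule already used, and the batches, which hold the first and the second wild-type and full-length library, gave 49 and 12 full-length gains. Unknown read depth and lists of unequal length limit all counts.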
